A study of Homo sapiens with 2 samples.

Results

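Genes that repair DNA and signal its damage were followed in COLO320, an established line from a human colorectal tumour, after knockdown of CDX2, a homeobox factor that directs intestinal identity. The 57 genes were given as a list of symbols and divided here into 10 groups by pathway. Of these, 54 had a named feature on the array. A gene's value was the mean over its features with a ratio other than exactly 0 on each array, which gave 52 of the 57 genes a value, out of 12842 genes with one in the whole table. Cells received 100 nM of CDX2 siRNA 6, of CDX2 siRNA 8 or of a non-targeting control siRNA. Medium was changed the next morning, and RNA was taken 24 h after that. RNA of each CDX2 siRNA was labelled with Cy5 and hybridised with control RNA in Cy3 on a two-colour Agilent 44K array, so that there were 2 arrays, each giving the ratio of CDX2 siRNA over control, and the 2 siRNAs served as the replicates (n = 2 throughout). The knockdown was transient, in 1 cell line, and no array had its dyes swapped. An effect of the dye on a gene's ratio therefore cannot be told apart from an effect of the siRNA. Rose and fell below mean a ratio above or below 0 past the threshold. The table holds ratios only, so that neither the level of a gene nor the identity of the cells could be checked against marker genes.

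DNA damage is repaired by separate pathways that share a signalling layer. Breaks through both strands are sensed by the MRE11-RAD50-NBN complex and the kinase ATM, and are sealed either by end joining, which ligates the ends directly, or by homologous recombination, which copies the sister chromatid. Crosslinks need the Fanconi anaemia proteins, replication errors the mismatch proteins, bulky adducts nucleotide excision, and damaged bases or nicks base excision and single-strand break repair.

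CDX2 itself had a log2 ratio of -1.44 with siRNA 6 and -1.41 with siRNA 8, a mean of -1.42 ± 0.0192 (SD), which is 37.3% of control (limma, adjusted p = 0.00164). Over all 12842 genes the median log2 ratio was -0.13, and 12.1% of genes were called higher and 28.6% lower at a limma adjusted p of 0.05. A ratio is measured on RNA of whole cultures, so that fewer cells with a transcript and less of it per cell cannot be told apart. Nothing in the labels says whether the cultures were prepared separately, so the p-values cover variation between the 2 arrays alone. That variation was estimated from a gene's own ratios (1 degree of freedom) and from all genes (a prior of 2.87). The SD printed for a gene therefore does not set its p-value by itself.

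Of the 52 repair genes with a value, 5 rose (LIG3, ABRAXAS1, UNG, FANCF and PMS1) and 13 fell, led by the end-joining ligase LIG4, the mismatch protein MLH3, the recombination protein XRCC3 and the kinase ATM. The other 34 did not pass. The shares called, 9.62% higher and 25% lower, lay near the 12.1% and 28.6% over all genes, and 34.6% were called in either direction, beside 40.7% of all genes. The median log2 ratio of the 52 genes was -0.17, against -0.13 for all genes tested. At least 1.5-fold on both arrays were 2 repair genes higher and 9 lower, beside 7.80% and 18.4% of all genes. The means ran from -1.89 for LIG4 to 1.35 for LIG3, while over all genes they ran from -4.72 to 7.60. When exact zeros were kept as ratios of 0, limma called 0 of 54 repair genes (21 had an unadjusted p under 0.05), and CDX2 itself did not pass (adjusted p = 0.0676). That fit covers 18334 genes, and those at 0 on both arrays enter its shared variance estimate. CDX2 and LIG3 have no feature at 0 and kept their ratios, so for them only the fit changed.

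**Figure D1:**
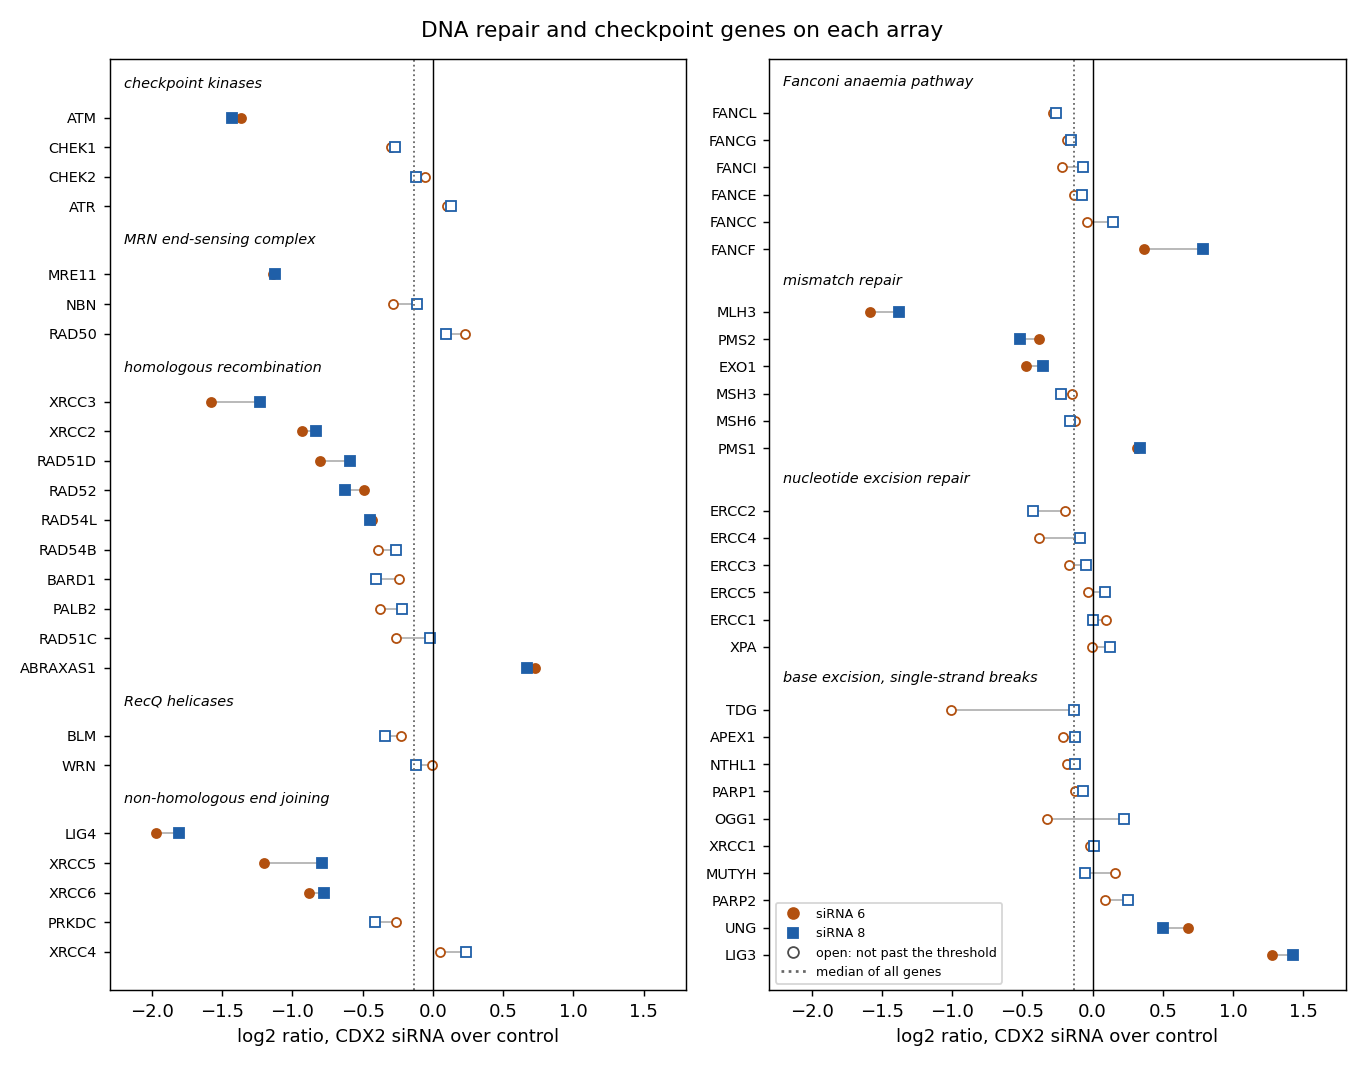
Log2 ratio (CDX2 siRNA over control) of each of the 52 repair genes with siRNA 6 (circles) and siRNA 8 (squares), by pathway. Filled symbols mark the 18 genes past a limma adjusted p of 0.05, and the dotted line is the median of all genes, -0.13. LIG4 lies farthest left, at -1.97 and -1.81, and LIG3 farthest right, at 1.28 and 1.43.

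The counts by group are given beside the shares over all genes, 12.1% higher and 28.6% lower. In end joining 3 of 5 fell and 0 rose, in homologous recombination 5 of 10 fell and 1 rose, and in mismatch repair 3 of 6 fell and 1 rose. In nucleotide excision repair 0 of 6 passed limma, with 1 (ERCC2) at an unadjusted p under 0.05, and in base excision and single-strand break repair 2 of 10 rose and 0 fell. Among checkpoint kinases 1 of 4 fell, in the MRN complex 1 of 3 fell, in the Fanconi anaemia group 1 of 6 rose, and of the RecQ helicases 0 of 2 passed, with 1 (BLM) at an unadjusted p under 0.05. The median log2 ratio was -0.83 in end joining, -0.38 in homologous recombination, -0.30 in mismatch repair, -0.04 in nucleotide excision and -0.03 in base excision repair, beside -0.13 for all genes. The end-joining median is the mean of XRCC6. With only features annotated to a RefSeq mRNA, XRCC6 stood at -0.17 and XRCC5 at -0.19. In that fit neither passed, while LIG4, the remaining end-joining gene that fell, still did. These groups are small, and differences between them were not tested.

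**Figure D2:**
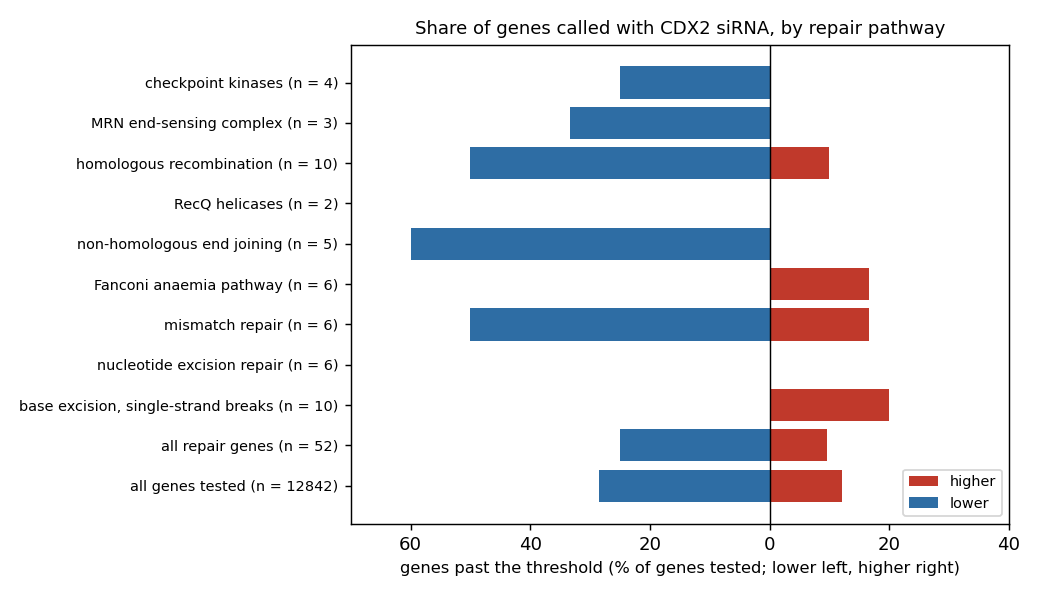
Share of genes past a limma adjusted p of 0.05 in each repair pathway (% of genes tested, n beside each name), lower to the left and higher to the right of 0. The last bars give all 52 repair genes and all 12842 genes. End joining reaches 60% lower with XRCC5 and XRCC6 counted, which did not pass with RefSeq mRNA features alone. Nucleotide excision repair has no bar.

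Of the 4 checkpoint kinases listed, ATM fell and the other three did not pass. ATM, the kinase that responds to double-strand breaks, had a log2 ratio of -1.37 with siRNA 6 and -1.43 with siRNA 8, a mean of -1.40 ± 0.0455 (SD) or 37.9% of control (limma, adjusted p = 0.00171). With all features averaged, both arrays put ATM close to the value of CDX2. With the median feature ATM stood at -1.70 and CDX2 at -1.55, and a link between the genes was not tested. ATR, the sister kinase that responds to single-stranded DNA at stalled forks, stood at 0.10 and 0.13. CHEK2, the effector kinase downstream of ATM, stood at -0.06 and -0.12, and CHEK1, downstream of ATR, at -0.30 and -0.27 (adjusted p = 0.0699). CHEK1 was the one of these below the all-gene median of -0.13 on both arrays. ATM was read by 10 features of 1 accession, which ranged from -1.92 to -0.33 with siRNA 6 and from -1.70 to -0.61 with siRNA 8. All 10 lay below 0 on both arrays, and a further 2 ATM features were listed at 0 on both.

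In the MRN complex, MRE11, the nuclease subunit, had log2 ratios of -1.13 and -1.12 with siRNA 6 and siRNA 8, a mean of -1.13 ± 0.00754 (SD) (limma, adjusted p = 0.00241). Its 2 features differed. The first stood at -2.16 and -1.82, the other at -0.11 and -0.43, and 2 more were listed at 0 on both arrays. With the feature nearest to 0 in place of the mean, MRE11 stood at -0.27 and did not pass (adjusted p = 0.187). RAD50, the subunit that tethers the ends, was read by 11 features and stood at 0.23 and 0.09, and NBN, the adaptor that recruits ATM, at -0.28 and -0.11. Neither passed.

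End joining held the lowest repair gene. LIG4, the ligase that seals the ends, had a log2 ratio of -1.97 with siRNA 6 and -1.81 with siRNA 8, a mean of -1.89 ± 0.114 (SD), which is 3.70-fold lower (limma, adjusted p = 0.00125). It rested on 1 of 3 features, the other 2 being listed at 0 on both arrays. XRCC4, its obligate partner, stood at 0.05 and 0.24 and did not pass. PRKDC, the DNA-dependent protein kinase, stood at -0.26 and -0.41 (adjusted p = 0.0556). XRCC5 and XRCC6 encode the 2 Ku subunits that ring the broken end. XRCC5 had ratios of -1.2 and -0.79 (mean -1.0 ± 0.294, SD; limma, adjusted p = 0.00939) and XRCC6 of -0.88 and -0.78 (mean -0.83 ± 0.0723, SD; adjusted p = 0.00527). In both genes the low mean rested on 1 feature that was not annotated to a RefSeq mRNA. That feature stood at -2.10 and -1.51 for XRCC5 and at -2.32 and -1.98 for XRCC6. The RefSeq mRNA features averaged -0.19 for XRCC5 and -0.17 for XRCC6, and with these alone neither gene passed (adjusted p = 0.231 and 0.199).

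Homologous recombination held the most members that fell, 5 of 10, beside 28.6% of all genes. Of 14 further genes of this pathway, given below, 1 fell. XRCC3, which acts in repair of breaks by strand exchange, had ratios of -1.58 with siRNA 6 and -1.23 with siRNA 8 (mean -1.41 ± 0.246, SD; limma, adjusted p = 0.00327) on 1 feature. XRCC2 and RAD51D, which work in one complex, had ratios of -0.93 and -0.83 (adjusted p = 0.00451) and of -0.80 and -0.59 (adjusted p = 0.0112). The RefSeq mRNA feature of XRCC2 stood at -1.81 and -1.69 and its other feature at -0.05 and 0.03, and the 3 features of RAD51D had means of -1.2, -0.75 and -0.13. RAD51C, which binds XRCC3, stood at -0.26 and -0.02 and did not pass.

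RAD52, which anneals single strands, fell with ratios of -0.49 and -0.62 (adjusted p = 0.0153), and RAD54L, a motor protein that acts on strand exchange, with -0.43 and -0.45 (adjusted p = 0.0235). Against a fold of 1.2 in place of no change (limma's treat), RAD52 (adjusted p = 0.0607) and RAD54L (0.157) did not pass. RAD54B, the homolog of RAD54L, was read by 10 features, all below 0 on both arrays, and stood at -0.39 and -0.26 (adjusted p = 0.0590). BARD1, the partner of BRCA1, stood at -0.24 and -0.40 (adjusted p = 0.0642) and PALB2, which bridges BRCA1 and BRCA2, at -0.38 and -0.22 (adjusted p = 0.0774). None of RAD54B, BARD1 and PALB2 passed, although each was below 0 on both arrays.

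ABRAXAS1, the scaffold of the BRCA1-A complex, was the 1 recombination gene that rose, with ratios of 0.73 and 0.67 (mean 0.70 ± 0.0441, SD; limma, adjusted p = 0.00748), or 1.62-fold. It was read by 12 features, all above 0 on both arrays. Its 11 RefSeq mRNA features averaged 0.51 with siRNA 6 and 0.56 with siRNA 8, and the remaining 1 stood at 3.12 and 1.8. BRCA1 had 1 feature, listed at 0 on both arrays, and BRCA2 was not analysed here.

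Of the RecQ helicases, which unwind recombination intermediates, BLM stood at -0.22 and -0.34 (adjusted p = 0.0781), and WRN, on 10 features, had a mean of -0.06 (adjusted p = 0.622).

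In the Fanconi anaemia group 1 of the 6 members with a value passed, and none reached 1.5-fold on both arrays. FANCF, an adaptor of the core complex, rose with ratios of 0.37 with siRNA 6 and 0.79 with siRNA 8 (mean 0.58 ± 0.299, SD; limma, adjusted p = 0.0392) on 1 feature. Its ratio is the same when the median feature stands for every gene, but in that fit FANCF did not pass (adjusted p = 0.0539). FANCL, the ubiquitin ligase of the core complex, stood at -0.28 and -0.26 (adjusted p = 0.0774) and FANCG at -0.18 and -0.15. FANCC, FANCE and FANCI, the last a substrate of FANCL, had means of 0.05, -0.10 and -0.15. FANCA and FANCD2 were not analysed here.

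Mismatch repair moved in both directions. MLH3, a MutL subunit that also acts in meiotic crossing over, had ratios of -1.59 with siRNA 6 and -1.38 with siRNA 8, a mean of -1.48 ± 0.147 (SD) or 2.80-fold lower (limma, adjusted p = 0.00197), on 1 feature. PMS1, another MutL subunit, had ratios of 0.32 and 0.33 (adjusted p = 0.0496), just inside the threshold, on 1 of 2 features, and it did not pass with the median feature (0.0660). PMS2, the MutL endonuclease, had ratios of -0.38 and -0.52 (adjusted p = 0.0265). Its 4 features had means from -1.15 to 0.03, so its ratio is uncertain. PMS2 has near-identical pseudogene copies, and whether its features also read these was not tested. EXO1, the exonuclease that removes the mismatched strand, was read by 10 features that stayed between -0.56 and -0.41 with siRNA 6 and between -0.41 and -0.29 with siRNA 8 (mean -0.41 ± 0.0838, SD; adjusted p = 0.0323). MSH6 and MSH3, which recognise mismatches and loops, had means of -0.14 and -0.18 and did not pass. After each array was centred on its median, PMS2 (adjusted p = 0.0632), EXO1 (0.0744) and the recombination gene RAD54L (0.0544) no longer passed.

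None of the 6 listed nucleotide excision repair genes passed limma, with ERCC2 alone at an unadjusted p under 0.05. Of 15 further genes of this pathway, given below, 6 fell, beside 28.6% of all genes. XPA, the damage verifier, ERCC1, a subunit of the 5′ nuclease, and ERCC5, the 3′ nuclease, had means of 0.06, 0.05 and 0.03. ERCC3 and ERCC2, the helicases of TFIIH, had means of -0.11 and -0.31 (ERCC2, adjusted p = 0.0849). ERCC4, the partner of ERCC1, had ratios of -0.38 and -0.09, a mean of 2 features that went opposite ways. The first stood at -2.24 and -1.85 and the other at 1.48 and 1.67, both under the same accession, so that the mean of -0.23 describes neither, and 1 more was listed at 0 on both arrays.

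Base excision and single-strand break repair held the largest increase. LIG3, the ligase that closes nicks in the nucleus and in mitochondria, had a log2 ratio of 1.28 with siRNA 6 and 1.43 with siRNA 8, a mean of 1.35 ± 0.106 (SD) or 2.56-fold higher (limma, adjusted p = 0.00206). Its 2 features stood at 1.42 and 1.14 with siRNA 6 and at 1.55 and 1.31 with siRNA 8. XRCC1, the scaffold that binds LIG3, stood at -0.02 and 0.01 and did not pass. UNG, which removes uracil from DNA, had ratios of 0.68 and 0.50 on 1 feature (mean 0.59 ± 0.127, SD; adjusted p = 0.0151), and did not pass against a fold of 1.2 (adjusted p = 0.0537). PARP1 and PARP2, the sensors of strand breaks, had means of -0.10 and 0.17, and the 10 features of PARP1 lay between -0.16 and -0.06 with siRNA 6. APEX1, the abasic endonuclease, NTHL1, a glycosylase of oxidised pyrimidines, and MUTYH, a glycosylase of adenine opposite oxidised guanine, had means of -0.17, -0.15 and 0.05. MGMT, which reverses alkylation directly, had 1 feature, listed at 0 on both arrays.

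The 2 siRNAs gave unlike values for a few repair genes. TDG, a glycosylase of mismatched thymine, had the widest gap, with -1.01 for siRNA 6 and -0.13 for siRNA 8. All 3 of its features showed it, from -1.09 to -0.93 with siRNA 6 and from -0.16 to -0.10 with siRNA 8. OGG1, the glycosylase of oxidised guanine, stood at -0.33 with siRNA 6 and 0.22 with siRNA 8, with each of its 3 features below 0 on the first array and above 0 on the second. FANCF had the next widest gap, 0.42. TDG (adjusted p = 0.139) and OGG1 (adjusted p = 0.814) did not pass limma. With 1 array for each siRNA, a difference between siRNAs could not be tested. The median ratio of the 52 genes was -0.22 with siRNA 6 and -0.12 with siRNA 8, and for all genes tested it was -0.14 and -0.12.

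**Figure D3:**
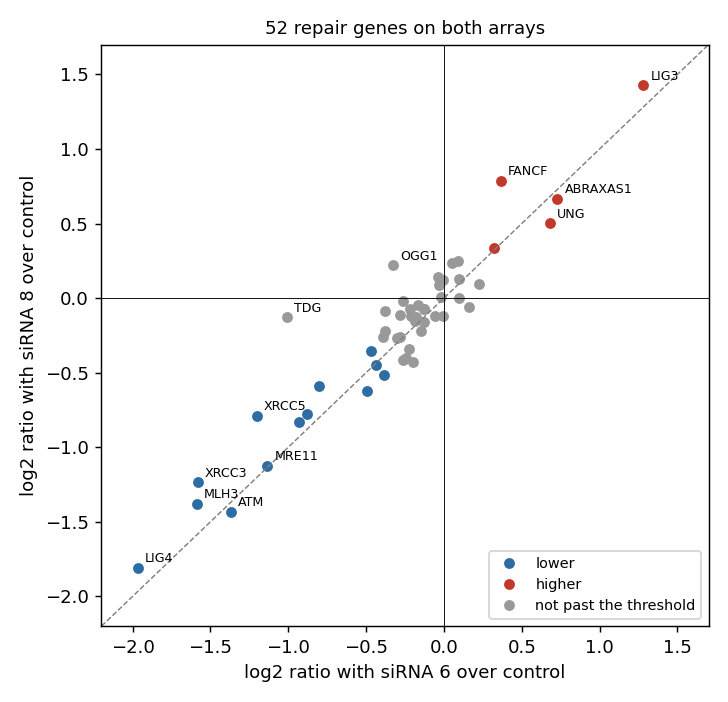
Log2 ratio of the 52 repair genes with siRNA 6 (x axis) against siRNA 8 (y axis), coloured by the limma call; the dashed line marks equal values. TDG, at -1.01 and -0.13, lies farthest from the line and OGG1, at -0.33 and 0.22, lies in the upper left quadrant.

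How much each value rests on single features differed between genes. Probe sequences were not available, so it is not known whether features of the same accession are separate probes or repeats. Of the 18 genes that passed, 8 were read by 1 feature and 10 by several. In 9 of those 10 every feature lay on the side of the gene's mean, PMS2 being the exception, but only in LIG3 did every feature reach 1.5-fold in its mean over arrays. The features of 9 repair genes differed by 1 or more on the log2 scale, and 8 of these genes passed, 7 of them lower. When the feature nearest to 0 stood for each gene, a choice made after seeing the data, 3 repair genes rose and 6 fell. ERCC4 was then among those that rose, since the feature nearest to 0 is its positive one. LIG3, LIG4, MLH3, XRCC3, ATM, RAD52, RAD54L and UNG still passed, of which LIG4, MLH3, XRCC3, RAD52, RAD54L and UNG have only 1 feature with a value.

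**Figure D4:**
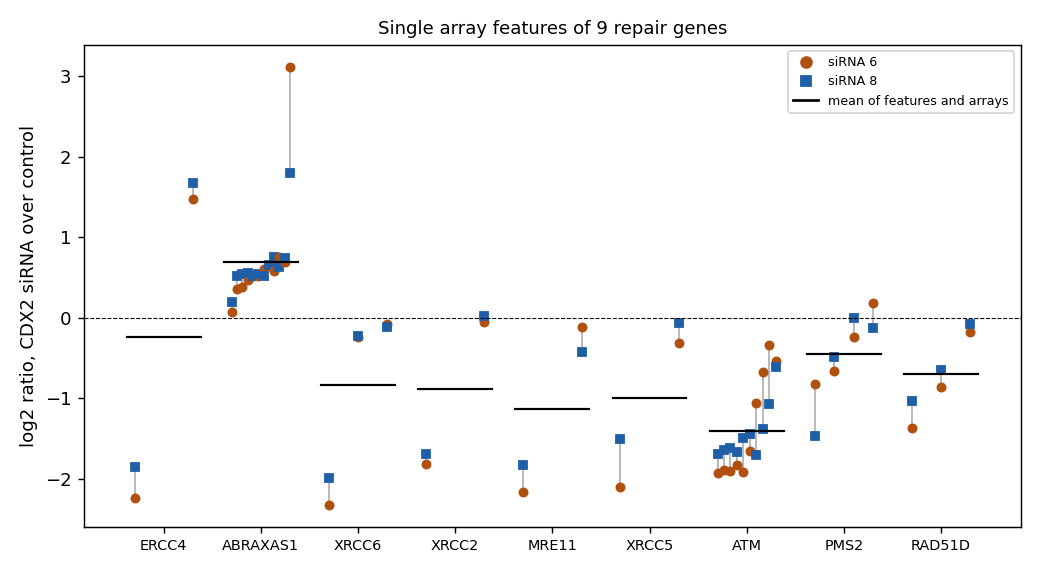
Log2 ratio of every single feature of the 9 repair genes whose features differ by 1 or more, with siRNA 6 (circles) and siRNA 8 (squares) joined for each feature; the black bar is the gene's mean. For ERCC4 the 2 features lie at means of -2.04 and 1.58, on opposite sides of 0.

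Promoter sequence was then set beside the calls. The upstream parts of the promoter windows of the 4 repair genes with the lowest means and of LIG3, the highest, are printed because these genes carry the largest changes. They are 250 bases before the RefSeq start on GRCh38.p14, 5′ to 3′ on the gene's strand: LIG4 at chr13:108215537-108215786 (minus strand), MLH3 at chr14:75051468-75051717 (minus), XRCC3 at chr14:103715452-103715701 (minus), ATM at chr11:108223075-108223324 (plus) and LIG3 at chr17:34980262-34980511 (plus). LIG4 has 5 windows for its starts and ATM has 2, and the one with the most motif matches is shown, for LIG4 1 of 2 windows with 1 match each. Capitals mark matches to any of the motifs searched.
LIG4: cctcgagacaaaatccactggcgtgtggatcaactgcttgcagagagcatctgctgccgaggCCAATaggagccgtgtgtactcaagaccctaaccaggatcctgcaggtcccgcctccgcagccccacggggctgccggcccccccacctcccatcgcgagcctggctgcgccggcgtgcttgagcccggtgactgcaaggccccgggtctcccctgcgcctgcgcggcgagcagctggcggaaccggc
MLH3: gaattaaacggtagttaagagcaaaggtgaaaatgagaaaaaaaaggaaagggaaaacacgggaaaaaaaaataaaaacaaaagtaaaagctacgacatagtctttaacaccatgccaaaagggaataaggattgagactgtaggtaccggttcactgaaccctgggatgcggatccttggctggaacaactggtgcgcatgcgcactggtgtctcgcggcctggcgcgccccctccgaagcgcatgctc
XRCC3: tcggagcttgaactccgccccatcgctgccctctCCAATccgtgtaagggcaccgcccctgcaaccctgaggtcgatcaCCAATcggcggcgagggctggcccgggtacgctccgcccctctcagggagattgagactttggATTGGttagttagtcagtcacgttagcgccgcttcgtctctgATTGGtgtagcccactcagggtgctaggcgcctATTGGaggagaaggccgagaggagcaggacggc
ATM: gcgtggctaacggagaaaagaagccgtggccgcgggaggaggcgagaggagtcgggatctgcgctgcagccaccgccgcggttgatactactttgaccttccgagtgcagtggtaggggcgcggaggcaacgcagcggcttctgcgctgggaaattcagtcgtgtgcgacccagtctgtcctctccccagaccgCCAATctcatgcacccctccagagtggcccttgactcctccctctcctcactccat
LIG3: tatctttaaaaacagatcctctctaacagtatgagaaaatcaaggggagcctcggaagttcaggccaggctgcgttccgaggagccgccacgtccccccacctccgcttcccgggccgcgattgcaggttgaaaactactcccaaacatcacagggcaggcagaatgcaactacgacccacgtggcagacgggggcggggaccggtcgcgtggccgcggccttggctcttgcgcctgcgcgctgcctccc

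The motifs were the CDX2 core TTTATNG, the E2F sites TTTCCCGC, TTTGGCGC, TTTCGCGC and TTTGCCGC, and the box CCAAT, each on both strands, in windows of 250 bases before and 50 after the start. E2F factors drive genes of S phase, and CCAAT is bound by NF-Y. Of the 52 repair genes, 46 matched a RefSeq promoter entry, with 68 windows. The CDX2 core was in 2 of these 68 windows (2.94%), against 9.73% of all 35116 windows and 6.46% of windows of tested genes. Its letters were in the windows of APEX1 and PARP2, neither of which passed, and in those of 0 of the 12 lower and 0 of the 5 higher genes with an entry. An E2F site was in 9 of the 68 windows (13.2%), against 3.31% of all windows and 4.89% of those of tested genes. These belonged to EXO1, PMS2, XRCC2 and XRCC6 among genes that fell, UNG among genes that rose, and FANCC, MSH3 and MSH6 among those that did not pass. By gene with an entry, these are 4 of 12, 1 of 5 and 3 of 29. Windows of 1 gene can overlap, so shares by window can count 1 site more than once, as for the E2F site of PMS2. CCAAT was in 31 of 68 windows (45.6%), against 34.6% of all, and the printed window of XRCC3 holds 5 matches. A match is a description of the letters only.

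Several repair genes share a start region with a neighbour transcribed the other way. A protein-coding neighbour on the opposite strand started within 1000 bases of 14 of the 46 genes, and 12 of these neighbours had a ratio. Of the 5 members that fell and had such a neighbour with a ratio, 2 had a neighbour that fell as well, and 3 had one that did not pass, where 28.6% of all genes fell. ABHD13, 43 bases from LIG4, had ratios of -0.62 and -0.42 (limma, adjusted p = 0.0219), against -1.97 and -1.81 for LIG4. NPAT, a regulator of histone genes that starts 429 bases from ATM, had ratios of -0.65 and -0.34 (adjusted p = 0.0387). The neighbours of MRE11, XRCC3 and XRCC6 (ANKRD49, ZFYVE21 and DESI1) had means of -0.05, -0.28 and -0.32 and did not pass. ORMDL1, beside PMS1, stood at 0.31 and 0.30 (adjusted p = 0.0585), close to the 0.32 and 0.33 of PMS1. TMEM167A, beside XRCC4, rose with ratios of 0.37 and 0.40 (adjusted p = 0.0330), while XRCC4 did not pass.

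Other genes, from a list of 92 that are not among the 57, were tested in the same fit. They belong to these pathways or to translesion synthesis, which holds none of the 57. Of 84 with a value, 4 rose (4.76%) and 24 fell (28.6%), beside 12.1% and 28.6% of all genes, and the median log2 ratio was -0.12. After centring of each array, 8 rose and 15 fell. Of the 84 genes, 61 rested on 1 feature with a value. Among these are RNF168, HUS1, BRIP1, POLL, FAAP24, FANCB, RECQL4, ERCC6, NEIL3, PARG, POLB, REV3L and POLI, named below. In damage signalling 5 of 14 fell, among them RNF168, a ubiquitin ligase that marks chromatin at breaks (log2 ratios -2.45 and -2.01; limma, adjusted p = 0.00174), HUS1, part of the checkpoint clamp (-1.70 and -1.70; adjusted p = 0.00126), and ATRIP, the partner of ATR (-0.55 and -0.47). In the recombination list 1 of 14 fell, BRIP1, a helicase that binds BRCA1 (-1.11 and -1.06; adjusted p = 0.00267).

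In the end-joining list 3 of 6 fell, DCLRE1C, the nuclease Artemis (-0.47 and -0.92), POLL, a gap-filling polymerase (-0.85 and -0.48), and APLF (-0.64 and -0.62), beside 28.6% of all genes. The 2 features of DCLRE1C had means of -1.40 and 0.01, and those of APLF of -1.11 and -0.15. Of 8 further Fanconi anaemia genes 3 fell, FAAP24 (-1.55 and -1.18), FANCM (-0.51 and -0.47) and FANCB (-0.38 and -0.58). The 3 features of FANCM had means of -1.03, -0.26 and -0.19. RECQL4 was the 1 of 3 further RecQ helicases that fell (-0.36 and -0.30; adjusted p = 0.0492).

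Of 15 further nucleotide excision genes 6 fell, with the transcription-coupled repair factors ERCC6 (-2.16 and -1.85; limma, adjusted p = 0.00155), XAB2 (-1.2 and -1.25) and ERCC8 (-1.30 and -0.71) lowest on both arrays among them. The 2 features of ERCC8 had means of -1.93 and -0.08, those of XAB2 of -2.04 and -0.41, and those of the base excision gene NEIL2 of -1.85 and -0.13. Of 13 further base excision genes 4 fell, among them the glycosylases NEIL3 (-1.52 and -1.5; adjusted p = 0.00150) and NEIL2 (-1.05 and -0.94) and PARG, which removes ADP-ribose chains (-1.88 and -0.85), while 1 rose, the gap-filling polymerase POLB (0.72 and 1.07), named after its values were seen. Among translesion polymerases and their helpers, which copy past damage, 3 of 9 rose and 1 fell, beside 12.1% and 28.6% of all genes. Those that rose were POLK (0.67 and 0.83; adjusted p = 0.00772), REV3L (0.76 and 0.57; adjusted p = 0.0115) and POLI (0.56 and 0.80; adjusted p = 0.0128). The 2 features of POLK had means of 0.32 and 1.18. The polymerases REV1 (mean 0.28) and POLH (mean -0.25, with features at 0.42 and -0.92) did not pass. The 2 direct reversal genes of this list did not pass.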

How the data were processed

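Two-colour Agilent 44K arrays were read with Agilent Feature Extraction 9.5.3, per the submitters' processing notes. The deposited values were taken as log10 ratios of Cy5 over Cy3, the base that tool uses, although the base, the background and dye correction and the genome build of the array are not given in the sources used here. They were converted to log2 and used as deposited. Of 45015 features, 31332 had 1 gene in the platform annotation and were used, 93 had several and 13590 had none. An exact 0 was taken to mean no measurement, which no source spells out.

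An intercept-only fit in limma 3.58.1 (R 4.3.3) with eBayes covered both arrays and all 12842 genes, with Benjamini-Hochberg adjustment. It had 1 residual degree of freedom, and the prior added 2.87. The number of arrays limits the precision. The members, pathway lists and companion list were chosen with earlier results of these data known. Both ratios or their range over features, and the adjusted p, are given for members past the threshold with 1 sign on both arrays. Of those members, XRCC2, RAD51D, RAD52, RAD54L, PMS1 and PMS2 are printed without mean and SD. Up to 25 members were allowed by the smaller absolute ratio, and companion genes were limited to 3 per pathway by that measure. Members whose features differ by 1 or more and the 3 widest gaps between arrays are also given. Neighbouring genes were looked at after seeing the data. Promoters came from RefSeq on GRCh38.p14, and Python 3.11.15 with pandas 2.3.3 searched them. Alternatives were centring, quantile normalization, the variance prior, the feature rule, the reading of zeros, limma's treat, the fold and each array alone.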

Additional observations from a re-analysis of the deposited data

How the results depend on the processing

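Quantile normalization and a robust variance prior kept all 18 repair genes past the threshold. Keeping exact zeros as values, limma called 0 repair genes higher and 0 lower (21 of 54 at an unadjusted p under 0.05) and 0 companion genes higher and 0 lower (32 at an unadjusted p under 0.05), and CDX2 kept its log2 ratio of -1.42 with an adjusted p of 0.0676. That setting tests 18334 genes, and the other fits run for CDX2 (all but the feature nearest to 0) gave it an adjusted p from 0.00164 to 0.00313. The repair genes that rose numbered 3 with the median feature, 3 with features of 1 array not 0 kept, 2 by treat with a fold of 1.2 (9 fell, and EXO1, FANCF, PMS1, PMS2, RAD52, RAD54L and UNG did not pass), and 3 with the feature nearest to 0, where 6 fell. EXO1, FANCF, PMS1 and XRCC6 did not pass with the median feature, and PMS2 took the opposite sign, 0.034, with the feature nearest to 0. Centring gave a repair gene median of -0.040, 10 repair genes lower, and 8 companion genes higher and 15 lower, where treat gave 11 lower. Lower genes made up 58.0% of all calls after centring and 70.2% before. Those 1.5-fold or more above control on each array numbered 1 with the median feature and 1 with RefSeq mRNA features. At a fold of 1.2 there were 5 higher and 15 lower, and at a fold of 2 there were 1 and 5. With 1 array left out there is no test, and the repair gene median was -0.22 or -0.12, the 1.5-fold counts 3 higher and 10 lower on either array, and CDX2 -1.44 or -1.41. No paired analysis was possible because the 2 arrays form 1 group. Signal over background is unknown, since the table holds no intensities.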
